A study of Mus musculus with 12 samples.

Results

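Sele, Selp, Icam1, Icam2, Vcam1 and Cd99 encode the adhesion molecules with which vessel walls catch and pass leukocytes, and their RNA was followed across the endothelial cells of the mouse lymph node. The members were chosen by gene symbol alone, as the rows of the deposited feature tables that carry these 6 names. Of the 32285 genes in those tables, 5 carried one of the names: Sele, Selp, Icam1, Icam2 and Vcam1. No row was matched to Cd99, which is not analysed here.

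The data were 12 single-cell libraries, in which each RNA molecule of a droplet carries a unique molecular identifier (UMI). All mice were C57BL/6, aged 7 to 10 weeks, homozygous for a floxed Atg12 (ATG12 fl/fl), an autophagy gene, and given tamoxifen 5 times. They were labelled as positive or negative for CDH5 CreER, a Cre recombinase under the promoter of the endothelial cadherin gene that acts after tamoxifen. Nodes were taken after vehicle (acetone and olive oil), or 3 or 7 days after 50 ul of 4% oxazolone, a contact sensitiser, on the shaved abdomen, and each was split by CD45 microbeads into an endothelial fraction (named CD31 in the titles) and an immune fraction (CD45). Each combination of genotype, treatment and fraction was 1 library, so there were no replicates. The labels do not say how many mice went into a library. The p-values below set a difference against how far single libraries depart from a sum of label and treatment effects. A label effect that differs between treatments therefore counts as spread, and the spread between libraries of the same condition cannot be estimated. Where 6 values are given, they run vehicle, day 3 and day 7, and each of these pairs starts with the library labelled Cre-negative.

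E-selectin (Sele) and P-selectin (Selp) bind carbohydrate ligands on passing leukocytes and slow them to a roll. P-selectin is stored in Weibel-Palade bodies of endothelial cells and alpha granules of platelets. E-selectin is made after induction by cytokines such as tumour necrosis factor. Icam1 and Icam2 are immunoglobulin-fold ligands of leukocyte beta2 integrins, Icam1 inducible and Icam2 constitutive, and Vcam1 is the ligand of the integrin alpha4 beta1. In lymph nodes, naive lymphocytes enter through high endothelial venules (HEV), whose tall cells display sulphated ligands for L-selectin, and lymph flows through channels lined by lymphatic endothelium.

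Transcription of Sele, Icam1 and Vcam1 is known to respond to NF-kB, and the promoters of the members were read for a short NF-kB-type motif. RefSeq promoter sequences (build GRCm38.p6) were matched for Sele, Selp and Icam1; those of Icam2 and Vcam1 are not printed. The motif searched was GGNNNTTCC, on both strands, in the 250 bases before the RefSeq start. Each run below is the gene's strand from 5′ to 3′, ending 1 base before the start, with the motif, or its reverse complement, in capitals.
Sele, chr1:164047984-164048233, plus strand: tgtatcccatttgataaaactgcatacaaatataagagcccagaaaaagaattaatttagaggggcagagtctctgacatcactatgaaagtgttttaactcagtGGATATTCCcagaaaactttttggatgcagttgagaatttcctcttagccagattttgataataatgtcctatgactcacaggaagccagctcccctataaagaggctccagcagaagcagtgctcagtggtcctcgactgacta
Selp, chr1:164115014-164115263, plus strand: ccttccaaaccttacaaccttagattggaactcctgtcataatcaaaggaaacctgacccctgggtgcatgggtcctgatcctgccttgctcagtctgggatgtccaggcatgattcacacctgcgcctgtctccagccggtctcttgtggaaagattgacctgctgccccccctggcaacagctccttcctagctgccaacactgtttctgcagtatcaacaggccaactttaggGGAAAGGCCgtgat
Icam1, chr9:21015690-21015939, plus strand: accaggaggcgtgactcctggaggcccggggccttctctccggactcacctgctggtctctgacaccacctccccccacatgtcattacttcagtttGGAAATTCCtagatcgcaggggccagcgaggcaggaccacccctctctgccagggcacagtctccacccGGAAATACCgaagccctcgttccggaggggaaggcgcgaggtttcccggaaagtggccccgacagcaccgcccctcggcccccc
Sele held 1 match, 145 bases before the start. Selp held 1 match on the minus strand, 14 bases before the start. Icam1 held 2 matches, 153 and 84 bases before the start, the nearer one on the minus strand. Of 32851 RefSeq promoters of this length, 15.7% held the motif at least once and 1.46% at least 2 times, so a single match is common. A match describes letters only, not a bound site.

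Sele (ENSMUSG00000026582) lies at chr1:164048234-164057677 and Selp (ENSMUSG00000026580) at chr1:164115264-164150026, both on the plus strand and 57586 bases apart. Icam1 (ENSMUSG00000037405) is at chr9:21015985-21028817 on the plus strand, where the GENCODE gene starts later than the RefSeq start used above (21015940). Vcam1 (ENSMUSG00000027962) is at chr3:116109949-116129688 and Icam2 (ENSMUSG00000001029) at chr11:106377656-106388075, both on the minus strand. All 5 are protein-coding genes in GENCODE M21 for GRCm38. The library kit reads transcripts near their 3′ ends and does not tell promoters or isoforms apart.

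The libraries held 36724887 to 76187731 UMIs each, and 5698 to 10553 cells were kept per library, 89054 in all. Any 2 libraries shared 6 to 27 cell barcodes, at most 0.384% of the smaller one. The CD31 libraries gave 17087 cells in 5 endothelial classes, named from marker genes that leave the members out: 2958 HEV-like, 468 venous-like, 5557 capillary-like, 3305 arterial-like and 4799 lymphatic-like. A further 9502 blood endothelial cells could not be named. The markers fitted the names in part: the lymphatic list summed to 2119.5 to 2921 CPM (UMIs per 1000000 UMIs of the class in a library) in lymphatic-like cells and at most 142 CPM in the other named classes, and the arterial list to 3669 to 4391 CPM against at most 799, although arterial-like cells also held 8310 to 19934 CPM of the capillary list. The HEV list summed to 12948 to 75983 CPM in HEV-like cells, against 2974 to 5196 in lymphatic-like and 639 to 20738.5 in venous-like cells. Venous-like cells had the highest sum of the venous list (4393 to 6427 CPM, against 2724 to 4406 in HEV-like cells) but also 15524 to 33051 CPM of the capillary list, and in the day 7 library labelled Cre-negative they held 19734 CPM of the HEV marker Glycam1. The targeted gene went against the labels: over the 5 classes Atg12 stood at 46.9 to 52.4 CPM in the libraries labelled Cre-negative and 62.8 to 74.6 CPM in those labelled Cre-positive. The labels do not say which part of Atg12 is floxed, and a 3′ count outside it would not check them. Every genotype direction below is therefore one between libraries labelled Cre-positive and Cre-negative.

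P-selectin RNA was highest in venous-like and HEV-like cells and far lower in the other classes. Selp stood at 1114, 1091, 697, 1169, 984 and 816 CPM in venous-like cells (134 to 477 UMIs per library). In HEV-like cells it stood at 436, 569, 1019.7, 813, 527 and 221 CPM (738 to 5200 UMIs). The ranges overlapped, and venous-like cells were the higher of these classes in 5 of 6 libraries, all but day 3 labelled Cre-negative. Lymphatic-like cells followed at 36.4, 53.1, 35.8, 51.8, 11.3 and 20.6 CPM, below every HEV-like value. Arterial-like cells had 0.389 to 9.09 CPM and capillary-like cells 0 to 3.02 CPM, and these overlap the 1.31 to 2.79 CPM counted in the B cell-like cells of these libraries, a type that should lack the gene. Venous-like cells are few and were shallower, with medians of 3259.5 to 3898 UMIs a cell against 7153.5 to 10359 in HEV-like cells. HEV-like cells, a median of 9.95% of endothelial-class cells, held 66.4% to 86.9% of all endothelial Selp UMIs, with a median of 74.2%. This share of UMIs reflects depth as well as cell number and level. The platelet list, whose cells also hold Selp, summed to 63.0 to 151 CPM in HEV-like and 36.6 to 58.5 CPM in venous-like cells, and its part in the Selp level was not tested. Of its 6 genes in HEV-like cells, Gp1bb and Treml1 were at 0 in 5 libraries, Ppbp in 3 and Gp9 in 2, while Pf4 and Itga2b were above 0 in all 6.

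E-selectin RNA was also highest in HEV-like and venous-like cells. Sele stood at 322, 397, 442, 320.3, 259.9 and 165 CPM in HEV-like cells (551 to 2253 UMIs) and 384, 354, 213, 189, 236 and 262 CPM in venous-like cells (43 to 150 UMIs). HEV-like cells were higher in 4 of 6 libraries and the ranges overlapped, so the order of these classes does not exceed the spread between libraries. It also turned with finer clustering, under which venous-like cells had a median of 474 CPM and HEV-like cells 279.6. Lymphatic-like cells stood at 42.6, 47.1, 89.9, 44.3, 21.9 and 28.5 CPM, below both classes in every library. Arterial-like and capillary-like cells held 0 to 7 Sele UMIs per library, at most 1.65 CPM, against 0.328 to 1.95 CPM of B cell-like cells. HEV-like cells held 51.1% to 78.6% of endothelial Sele UMIs.

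Icam1 RNA was broader. HEV-like cells stood at 479, 706, 306, 316, 659 and 396 CPM and venous-like cells at 351, 508, 304, 238, 521 and 305 CPM, with HEV-like cells higher in all 6 libraries and overlapping ranges. Lymphatic-like cells stood at 175, 211, 174, 197, 245 and 162 CPM, arterial-like cells at 78.5 to 110.4 and capillary-like cells at 25.4 to 49.3. The lymphatic, arterial and capillary ranges did not overlap one another. Capillary-like levels overlapped those of B cell-like cells (24.3 to 32.6 CPM), a cell type that also uses the gene. With finer clustering the venous-like median of Icam1 (538 CPM) lay above that of HEV-like cells (449).

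Icam2, the constitutive ligand, ran the other way. Arterial-like cells stood at 405, 401, 391, 449, 372 and 398 CPM, above every value of every other endothelial class. Capillary-like cells came next at 253, 224, 251, 216, 234 and 269.6 CPM, followed by venous-like cells at 165 to 240.2 CPM, HEV-like cells at 143 to 187 and lymphatic-like cells at 119 to 165. The capillary-like and venous-like ranges overlapped, with capillary-like cells higher in 5 of 6 libraries. The venous-like and HEV-like ranges also overlapped, as did the HEV-like and lymphatic-like ranges, while the capillary-like and HEV-like ranges did not. From the highest class to the lowest, the medians spanned 3.19-fold, the least of the 5 members.

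Vcam1 RNA was highest in lymphatic-like cells, at 471, 618, 475, 549, 623 and 489 CPM, and no other endothelial class reached that range. Venous-like cells stood at 147, 399, 249, 127, 244 and 116 CPM, arterial-like cells at 147, 137, 119.8, 172, 127 and 173 CPM and HEV-like cells at 113, 178, 109, 86.4, 122 and 120.0 CPM. These 3 ranges overlapped, so their order is not beyond the spread between libraries. Capillary-like cells stood apart at 2.19 to 10.7 CPM, from 4 to 36 UMIs per library. Lymphatic-like cells, a median of 17.1% of endothelial-class cells, held 57.9% to 77.8% of endothelial Vcam1 UMIs. They had medians of 6460.5 to 8371 UMIs a cell, and a share of UMIs reflects depth as well.

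**Figure D1:**
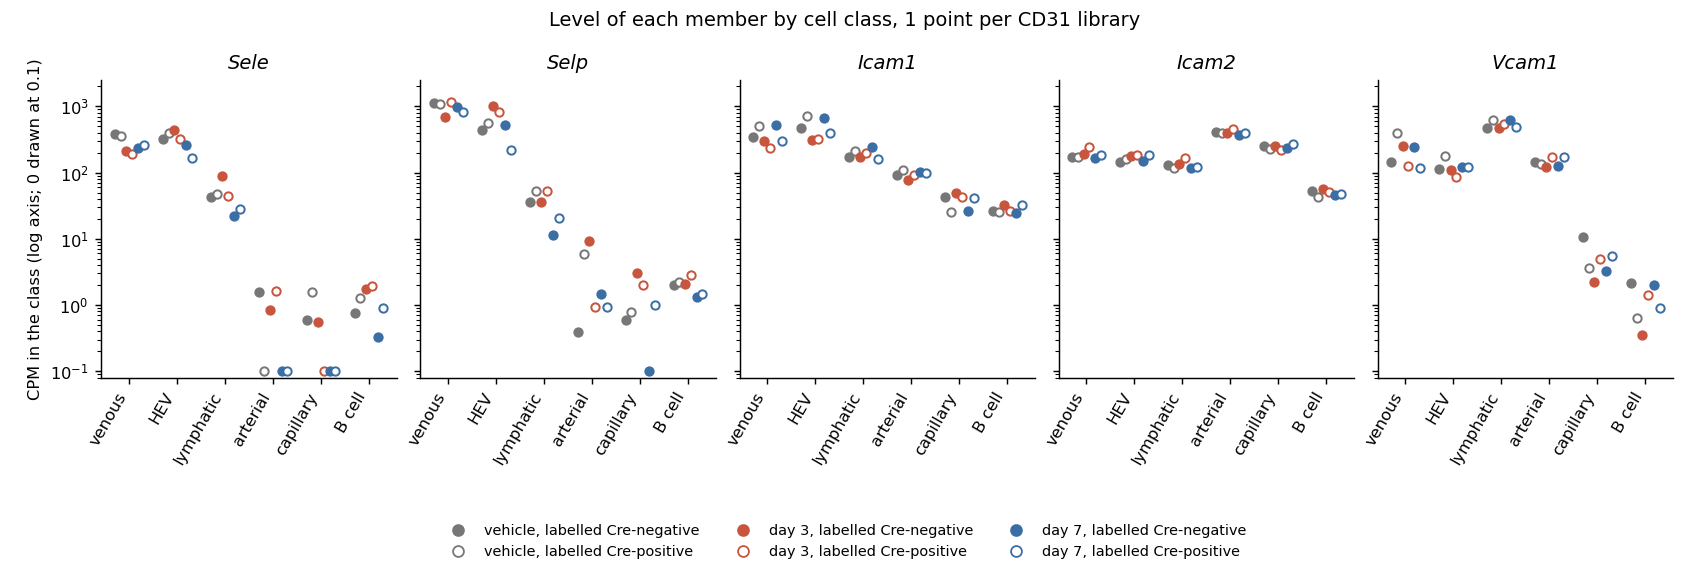
Level of each member in CPM (log axis, zeros drawn at 0.1) by cell class, 1 point per CD31 library, coloured by treatment and filled for libraries labelled Cre-negative. Selp and Sele sit high in venous-like and HEV-like cells and near or within the B cell-like range in arterial-like and capillary-like cells, apart from arterial-like Selp at up to 9.09 CPM, whereas Icam2 peaks in arterial-like and Vcam1 in lymphatic-like cells.

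RNA free in the droplets held all 5 members. Barcodes with at most 100 UMIs in the CD31 libraries contained 18.1 to 58.5 CPM of Sele, 25.7 to 152 CPM of Selp, 99.5 to 262 CPM of Icam1, 136 to 173 CPM of Icam2 and 88.4 to 165 CPM of Vcam1. B cell-like cells in the same droplet libraries nevertheless kept Sele, Selp and Vcam1 at or below 2.79 CPM. Lymphatic-like Selp lay under the free-RNA level of its own library in all 6 libraries and lymphatic-like Sele in 1, day 7 labelled Cre-negative (21.9 against 38.3 CPM). Both were above the B cell-like range in all 6.

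Shares of cells were compared after thinning every cell to 1000 UMIs, since HEV-like cells had medians of 7153.5 to 10359 UMIs and venous-like cells 3259.5 to 3898. For Selp, the lowest, median and highest shares over the 6 libraries were 23.9%, 25.3% and 31.8% in venous-like cells and 10.4%, 20.1% and 36.7% in HEV-like cells. Without thinning they were 32.4%, 40.1% and 56.5% and 26.4%, 40.5% and 64.7%. For Sele the thinned shares were 11.5%, 16.6% and 24.2% in HEV-like, 5.68%, 8.79% and 11.9% in venous-like and 1.57%, 2.59% and 5.18% in lymphatic-like cells. Before thinning, the Sele shares were 28.4%, 34.4% and 52.4% in HEV-like and 4.83%, 7.07% and 10.4% in lymphatic-like cells, and from 13% to 20% in venous-like cells. B cell-like cells, at 2931 to 3662 UMIs, gave thinned shares of 0 to 0.482% for Selp and 0 to 0.385% for Sele (unthinned 0.416% to 0.963% and 0.104% to 0.674%). At equal depth most HEV-like cells therefore gave no UMI of either selectin, which at 1000 UMIs does not show that they lack it.

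Thinned shares for Icam1 were 21.9%, 26.4% and 39.4% in HEV-like cells, against 2.17% to 3.13% in B cell-like cells (unthinned 65.2%, 71.0% and 79.2% against 7.08% to 9.84%). Venous-like cells overlapped them at 19.8% to 27.0%, with the higher share in the day 3 and day 7 libraries labelled Cre-positive (unthinned 42.9% to 54.1%, below HEV-like cells in all 6). For Icam2 they were 30.8%, 33.3% and 34.9% in arterial-like cells, against 5.29% to 6.02% in B cell-like cells (unthinned 66.0%, 68.6% and 75.9% against 13.3% to 19.7%). For Vcam1 they were 23.9%, 26.1% and 30.7% in lymphatic-like cells, against 0 to 0.329% in B cell-like cells (unthinned 55.3%, 58.9% and 63.3% against 0.120% to 0.920%).

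**Figure D2:**
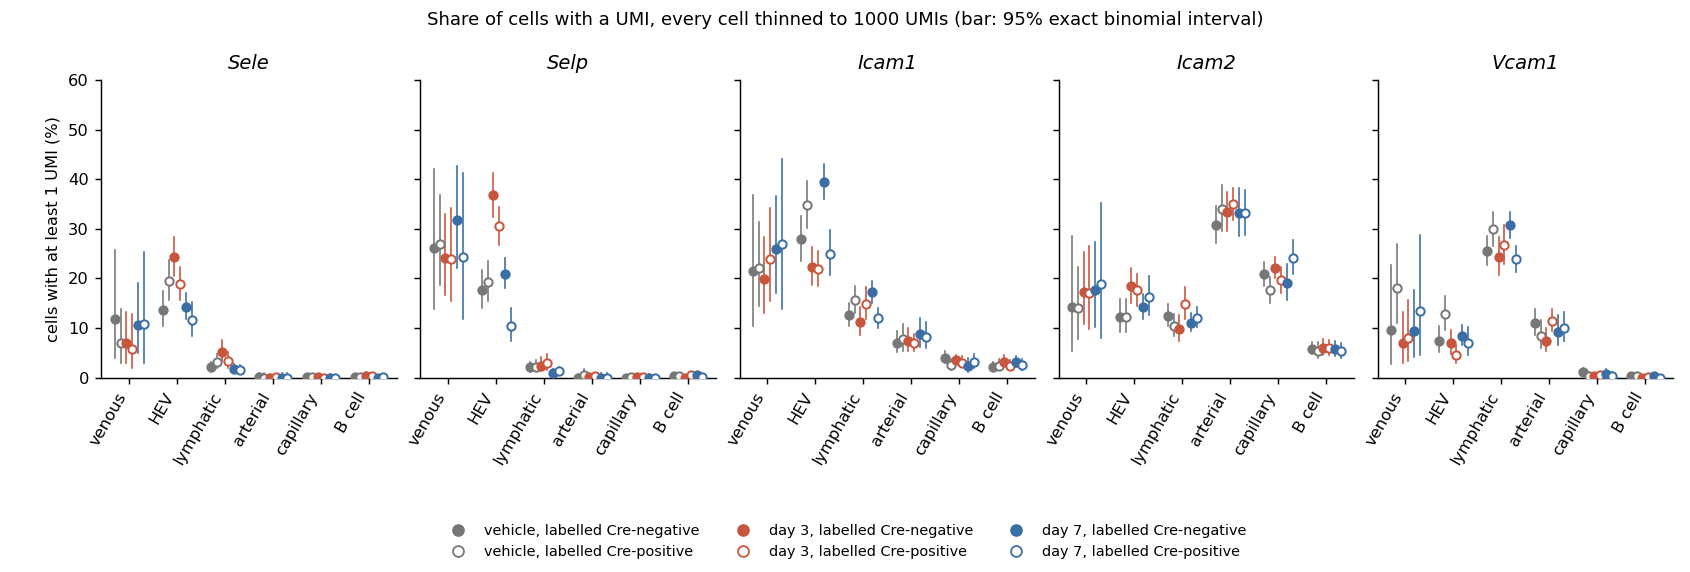
Share of cells with at least 1 UMI of each member (percent) after every cell was thinned to 1000 UMIs, by class, 1 point per CD31 library with its exact (Clopper-Pearson) 95% binomial interval, which covers counting error only. HEV-like cells of the day 3 library labelled Cre-negative reach 36.7% for Selp, and the intervals of the small venous-like class are wide.

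The selectins were found together in the same HEV-like cells. At 1000 UMIs a cell, 36.4% and 39.7% of Sele-positive cells also had a Selp UMI at vehicle, 60.3% and 50.5% at day 3 and 48.6% and 26.8% at day 7, the library labelled Cre-negative first. Sele-negative cells had Selp in 14.7% and 14.3%, 29.2% and 25.8%, and 16.4% and 8.25%. The share was higher in the Sele-positive cells of all 6 libraries. Icam1 was also more frequent in Selp-positive than in Selp-negative HEV-like cells in all 6, by as much as 55.8% against 29.7% at vehicle labelled Cre-positive and by as little as 26.1% against 20.1% at day 3 labelled Cre-negative. These are shares of cells within 1 library, with no test, and cells of the Glycam1-high and Glycam1-low clusters described below are mixed in them.

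On day 3 after oxazolone, 0 of 22 member tests passed in the 5 classes, against 1.47% of all gene tests in the same fits. Each fit was edgeR's quasi-likelihood test on the 6 CD31 sums of a class, with genotype and treatment as terms and Benjamini-Hochberg adjustment over all genes at 0.05. Of 25 possible tests 22 passed the expression filter; the 3 left out were Sele in arterial-like and Sele and Selp in capillary-like cells. The unadjusted p was under 0.05 in 7 of the 22, against 13.5% of all gene tests. With DESeq2 0 were called, and 2 had an unadjusted p under 0.05.

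HEV-like cells held 4 of those 7, and also 667 of the 785 gene tests called at day 3 in the 5 classes. The pooled 13.5% is thus not the background of these 4 results. Selp was highest in both day 3 libraries, with log2 ratios to vehicle of 1.23 (1.14 to 1.31) labelled Cre-negative and 0.51 (0.44 to 0.59) labelled Cre-positive, where the brackets give the 95% counting interval. The fitted log2 difference was 0.84 (SE 0.34, adjusted p = 0.162). Icam1 was lowest in both day 3 libraries, with ratios of -0.65 (-0.75 to -0.54) and -1.16 (-1.25 to -1.07) and a fitted log2 difference of -0.91 (SE 0.29, adjusted p = 0.0953). Icam2 was at 143, 162, 180.0, 183, 149.7 and 187 CPM, with a fitted log2 difference of 0.29 (SE 0.12, adjusted p = 0.188), and Vcam1 had -0.54 (SE 0.23, adjusted p = 0.178). Sele had no common direction, 0.46 (0.35 to 0.56) against -0.31 (-0.41 to -0.20), and a fitted log2 difference of 0.07 (SE 0.24, adjusted p = 0.875). The test called 5.72% of 11651 genes in this class at day 3, and 0 of the 5 members. Whether a member passed depended on single libraries: without either day 7 library, Selp (0.91 in both fits, adjusted p = 0.0215 and 0.0391) and Icam1 (-0.87 in both, adjusted p = 0.0164 and 0.0317) passed. Both of these fits rest on the same 4 libraries for this contrast, since the lone library of a treatment is fitted exactly, and are 1 check. Leaving out one or the other vehicle library moved these values in opposite directions. Without the one labelled Cre-positive, Selp passed at 1.57 (adjusted p = 0.000891), whereas Icam1 was -0.33 (adjusted p = 0.435) and Vcam1 -0.04 (adjusted p = 0.937). Without the one labelled Cre-negative, Icam1 (-1.36, adjusted p = 0.000364) and Vcam1 (-0.99, adjusted p = 0.000812) passed, whereas Selp was 0.29 (adjusted p = 0.451).

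**Figure D3:**
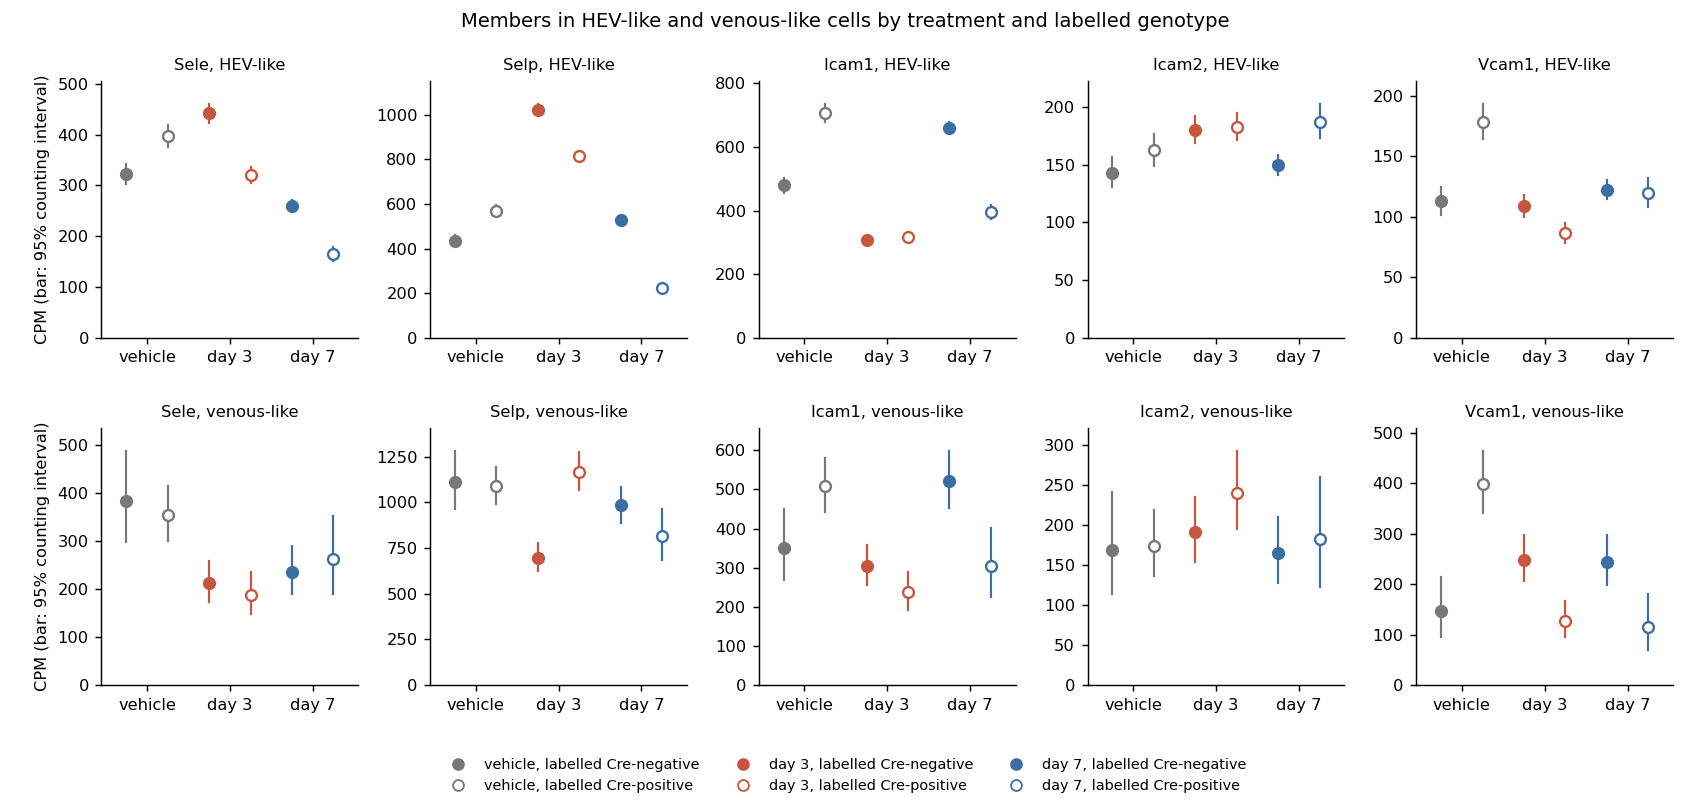
CPM of each member in HEV-like (top) and venous-like cells (bottom), 1 point per CD31 library with its 95% counting interval, by treatment, filled for libraries labelled Cre-negative; each axis starts at 0 and has its own scale. In HEV-like cells both day 3 points are the highest for Selp and the lowest for Icam1.

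Genes of a list of immediate early and dissociation genes, many known to rise during tissue digestion, were mostly lower at day 3 beside Icam1. It is named the immediate early list here and also holds heat-shock genes. In HEV-like cells the list of 13 summed to 11004, 10117, 6948, 5775, 10958 and 6693 CPM, and at day 3 it had 6 genes called lower and 1 higher, with a median log2 change of -0.91 against -0.01 over all genes. Those called lower included Fosb (-2.23), Nr4a1 (-1.85), Egr1 (-1.75) and Zfp36 (-1.72), which encode transcription factors and an RNA-decay protein. The NF-kB list of 21 summed to 4146, 5592, 2987, 2759, 4962 and 3053 CPM, in the order of Icam1 over libraries except within the day 3 pair. It had 2 genes higher, the cytokine Il6 (2.19) and the chemokine Cxcl10 (1.75), and 2 lower, Birc3 (-1.45) and Nfkbiz (-1.30), regulators within the pathway, with a median of -0.52. The part of digestion or of NF-kB in the Icam1 difference was not tested.

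Venous-like cells gave 2 of the 7 unadjusted results. Sele was 384, 354, 213, 189, 236 and 262 CPM in these cells, higher at vehicle than at either later time, and had -0.81 (SE 0.25, adjusted p = 0.276) at day 3, which passed without either day 7 library (-0.81, adjusted p = 0.0355 and 0.0180, again 1 check on the same 4 libraries). Icam1 had -0.65 (SE 0.30, adjusted p = 0.490), and Selp had -0.19 (SE 0.29, adjusted p = 0.855) with its day 3 libraries on either side of the vehicle pair. The immediate early list summed to 4577 and 3466 CPM here at day 3, against 6445 and 7236 CPM at vehicle, with 2 of 13 called (Fosb -1.75, Zfp36 -1.68) where 0.0872% of genes were. The seventh unadjusted result was Vcam1 in capillary-like cells, -1.17 (SE 0.55, adjusted p = 0.523), which rests on 36 UMIs in the vehicle library labelled Cre-negative: without that library the value was 0.43, and without the vehicle library labelled Cre-positive it was -2.15 (adjusted p = 0.00760). In arterial-like and lymphatic-like cells the members with their highest level there, Icam2 and Vcam1, had fitted log2 differences of 0.11 (SE 0.13, adjusted p = 0.734) and -0.06 (SE 0.28, adjusted p = 0.997). The unnamed blood endothelial cells, outside the 5 classes, had Sele at 17.1, 32.8, 40.9, 46.7, 27.4 and 27.7 CPM with 0.92 (SE 0.22, adjusted p = 0.0814) at day 3. There Icam2 had 0.59 (SE 0.15, adjusted p = 0.0887) and Vcam1 -0.55 (SE 0.15, adjusted p = 0.110), where 0.52% of genes were called. By label, Sele had 0.43 (SE 0.18) and Vcam1 0.41 (SE 0.13) in these cells without passing, where 0.0688% were called.

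By day 7, again 0 of 22 member tests passed with edgeR, against 0.00938% of all gene tests (0.0469% in capillary-like cells and 0% in the other 4 classes). The unadjusted p was under 0.05 in 3 of the 22, against 2.78% of all gene tests. DESeq2 called 1, with 3 under 0.05 unadjusted. That result was Selp in lymphatic-like cells, at 36.4, 53.1, 35.8, 51.8, 11.3 and 20.6 CPM (87 to 291 UMIs), where both day 7 libraries lay below the other 4. The log2 ratios to vehicle were -1.69 (-2.06 to -1.33) and -1.37 (-1.65 to -1.09), and the fitted log2 difference was -1.53 (SE 0.21, adjusted p = 0.465) with edgeR and -1.53 with DESeq2 (adjusted p = 0.0238). With edgeR it passed without the vehicle or the day 7 library labelled Cre-positive (-1.61, adjusted p = 0.0470, and -1.68, adjusted p = 0.0319), but not without those labelled Cre-negative (-1.46, adjusted p = 0.0962, and -1.41, adjusted p = 0.160). With likely doublets kept, and the cells clustered and named anew, the fitted value was -0.85 (adjusted p = 1.00). The day 7 log2 ratio between the libraries labelled Cre-positive and Cre-negative was then -0.22 in place of 0.87. The size of the day 7 difference thus changed in this setting, and the part of doublets in that change was not tested. All 6 values lie below the Selp level of free RNA in the same library, which was 44.4, 76.5, 152, 73.2, 111 and 25.7 CPM. The platelet list summed to 141 to 344 CPM in lymphatic-like cells, with Ppbp, Gp9 and Gp1bb at 0 in all 6 libraries and Pf4, Itga2b and Treml1 above 0 in all 6. An alternative fit took away free RNA at an assumed 5% of each sum, an amount not estimated from the cells. The actual part of free RNA and of platelets in the difference was not tested. Sele was lowest at day 7 in both HEV-like, -0.74 (SE 0.24, adjusted p = 0.920), and lymphatic-like cells, -0.84 (SE 0.30, adjusted p = 1.00). Without the vehicle library labelled Cre-negative, Sele (-1.21, adjusted p = 0.00129) and Selp (-1.10, adjusted p = 0.0323) passed in HEV-like cells, whereas without the one labelled Cre-positive they were -0.24 and 0.18 (adjusted p = 0.999 for both).

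**Figure D4:**
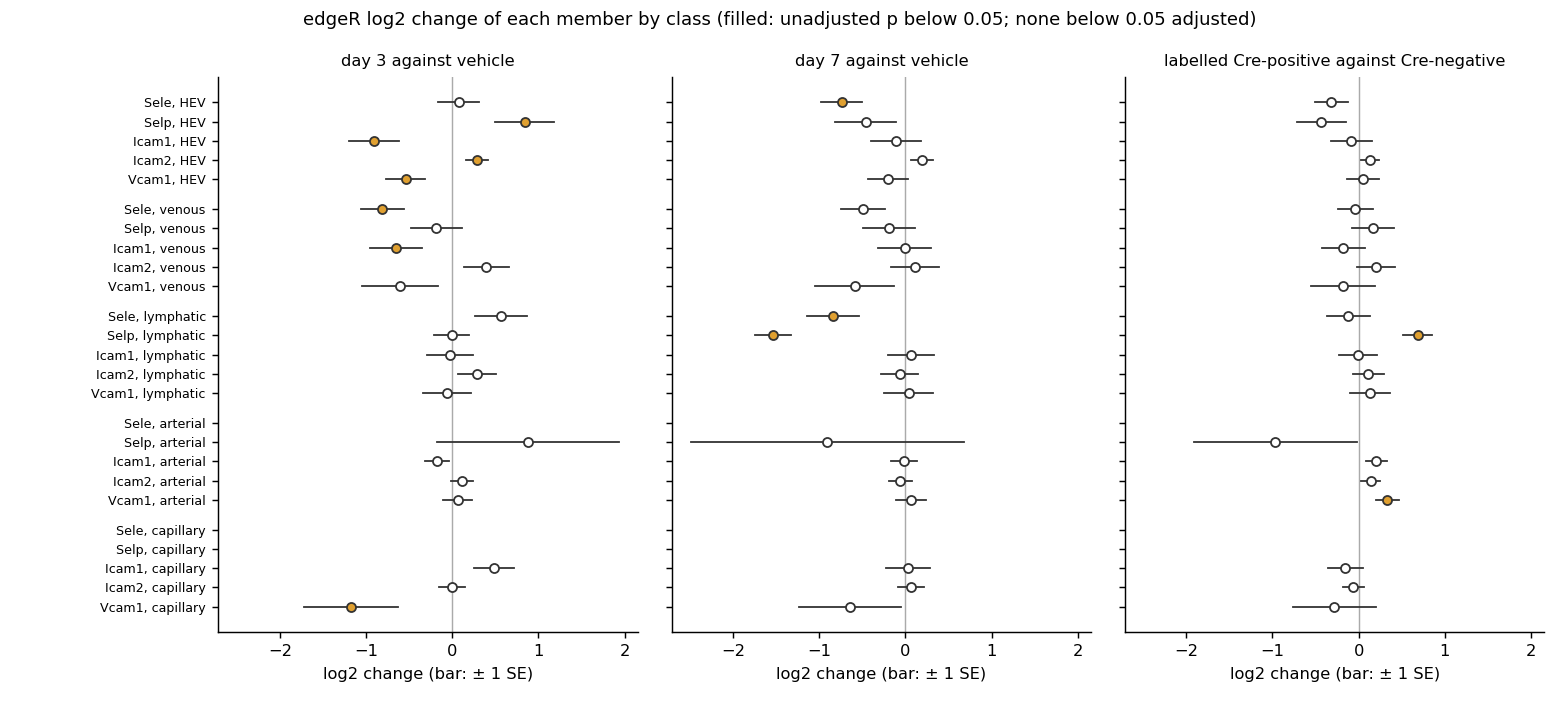
Fitted log2 change of each member by class (rows) for day 3 and day 7 against vehicle and for libraries labelled Cre-positive against Cre-negative (panels), with bars of 1 SE from edgeR. Filled points have an unadjusted p under 0.05 and no point passed after adjustment; rows without a point were below the expression filter.

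Between libraries labelled Cre-positive and Cre-negative, 0 of 22 member tests passed with edgeR, against 0.0356% of all gene tests (0.0343% in HEV-like, 0% in venous-like, 0.112% in capillary-like, 0.0184% in arterial-like and 0.00753% in lymphatic-like cells). The unadjusted p was under 0.05 in 2 of the 22, against 3.65% of all gene tests. With DESeq2 0 were called and 1 was under 0.05 unadjusted. The 2 were Selp in lymphatic-like cells, 0.69 (SE 0.17, adjusted p = 1.00), where all 13 genes of the immediate early list were higher with a median of 0.55, and Vcam1 in arterial-like cells, 0.33 (SE 0.14, adjusted p = 1.00). The fitted log2 differences in HEV-like cells were -0.43 (SE 0.29, adjusted p = 0.990) for Selp and -0.32 (SE 0.20, adjusted p = 0.990) for Sele. These averages cover ratios of opposite sign. For Selp the log2 ratio was 0.39 (0.29 to 0.48) at vehicle, -0.33 (-0.39 to -0.27) at day 3 and -1.25 (-1.37 to -1.14) at day 7. For Sele it was 0.30 (0.18 to 0.42), -0.46 (-0.56 to -0.37) and -0.65 (-0.79 to -0.52). For Icam1 it was 0.56 (0.47 to 0.65), 0.05 (-0.05 to 0.15) and -0.74 (-0.82 to -0.65). Each ratio sets 1 library against 1, and its interval covers counting error only. Without the vehicle pair, the HEV-like change was -0.86 for Selp (adjusted p = 0.00833) and -0.63 for Sele (adjusted p = 0.00758), both past the threshold; this leaves out the ratios of opposite sign. Without the day 3 pair they were -0.49 and -0.24 (adjusted p = 1.00 for both), and without the day 7 pair 0.04 and -0.07 (adjusted p = 0.999 for both), so the call was made in 1 of 3 such fits. Vcam1 in arterial-like cells also passed without the vehicle pair (0.54, adjusted p = 0.00232), and had 0.20 and 0.26 without the day 3 and the day 7 pair (adjusted p = 1.00 for both). Leaving out 1 vehicle library rather than both rests on the same 4 libraries for the label effect and is no further check. In those fits Selp in arterial-like cells, where it lay at 0.389 to 9.09 CPM, had -2.64 (adjusted p = 0.0170 and 0.00974), and without both it was not tested.

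Other genes also differed between the HEV-like cells of these library pairs. The immediate early list had 0 of 13 genes called by label, but all 13 were lower in the libraries labelled Cre-positive, with a median of -0.38. Glycam1 stood at 21170, 18376, 24271, 10972, 72419 and 10257 CPM in HEV-like cells. Glycam1-high cells made up 155 of 402 and 192 of 400 HEV-like cells at vehicle, the library labelled Cre-negative first. They made up 249 of 479 and 252 of 558 at day 3, and 444 of 763 and 113 of 356 at day 7. The part of this mix in the HEV-like ratios was not tested. Within the Glycam1-high and Glycam1-low clusters taken apart, the day 7 log2 ratio of Selp was -0.85 (-0.99 to -0.72) and -0.99 (-1.24 to -0.74). Glycam1 was called lower by label in capillary-like (-2.03), arterial-like (-2.10) and unnamed blood endothelial cells (-1.32), where the members gave no call. These comparisons had 0.112%, 0.0184% and 0.0688% of genes called. The HEV list, which holds Glycam1, summed there to 90.4 to 314, 577 to 1180 and 903 to 1951 CPM. The part of free RNA in these Glycam1 differences was not tested.

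Differences between HEV-like cells and each other class in these responses were tested within libraries, with library as a block, in 20 tests per contrast. No member passed: 0 of 20 by label (1 at an unadjusted p under 0.05), 0 of 20 for day 3 (6) and 0 of 20 for day 7 (1), against 0.0101%, 0.124% and 0.00608% of all gene tests, and DESeq2 called 0 in each (1, 3 and 1 unadjusted). Over all gene tests with edgeR, the unadjusted p was under 0.05 in 4.2% by label, 9.34% for day 3 and 3.58% for day 7. By class, the tests called 0.00828% (arterial-like), 0.0164% (capillary-like) and 0.0148% (lymphatic-like) of genes by label, 0.00869% (venous-like), 0.369% (capillary-like), 0.0497% (arterial-like) and 0.0664% (lymphatic-like) at day 3, and 0.0246% (capillary-like) at day 7. The lowest adjusted p was 0.201, for Icam1 in capillary-like cells at day 3, whose change exceeded that of HEV-like cells by 1.37 (SE 0.41). For Selp at day 3, the venous-like change was lower than the HEV-like one by a log2 difference of -1.03 (SE 0.35, adjusted p = 0.941), and by label the lymphatic-like difference was 1.09 (SE 0.31, adjusted p = 0.472). A difference in response between classes was thus not shown for any member with all 6 libraries. Without both vehicle libraries, the label difference passed for Selp in lymphatic-like cells (1.59, adjusted p = 0.00300). In arterial-like cells it then passed for Selp (-2.17), Icam1 (0.59) and Vcam1 (0.81). None of these passed without both day 3 or both day 7 libraries. The day 7 lymphatic-like difference of Selp was -0.99 (SE 0.38), and -1.90 without the day 7 library labelled Cre-positive. Without the day 7 library labelled Cre-negative or Cre-positive, the Icam1 difference of capillary-like cells passed (1.34, adjusted p = 0.00814, and 1.32, adjusted p = 0.00336), which is 1 check on the same 4 libraries. It was 2.39 (adjusted p = 0.0356) without the vehicle library labelled Cre-negative and 0.49 (adjusted p = 0.879) without the one labelled Cre-positive. Leaving out the vehicle library labelled Cre-negative also brought calls, among them Vcam1 in arterial-like cells at day 3 (1.43, adjusted p = 0.00980), which without the one labelled Cre-positive was -0.16 (adjusted p = 0.846).

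HEV-like cells fell into 2 clusters, and the selectins differed in them. The Glycam1-high cluster (1405 cells, a median of 11964 UMIs a cell) had 49905 CPM of Glycam1 and the Glycam1-low cluster (1553 cells, 6162 UMIs) 2431 CPM. Each cluster was named HEV-like from its own marker scores among the blood endothelial clusters. The HEV list summed to 20059 to 100466 CPM in the Glycam1-high and 2863 to 7801 CPM in the Glycam1-low cluster. The latter range overlapped that of lymphatic-like cells. The Glycam1-low cluster also held 2188 to 3093 CPM of the capillary list and 1716 to 2806 CPM of the venous list. The clusters and their tests were looked at after the first results were seen, and the clustering left the members out. Selp stood at 602, 868, 1193, 1182, 636 and 352 CPM in the Glycam1-high and 229.7, 94.0, 687, 289.5, 221 and 112 CPM in the Glycam1-low cluster. Sele stood at 401, 549.8, 452, 377, 303 and 229 and 224, 153, 422, 240.0, 139 and 112 CPM. Both selectins were higher in the Glycam1-high cluster in all 6 libraries.

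In the Glycam1-low cluster Selp passed the test for both factors. At day 3 it rose by 1.63 (SE 0.15, adjusted p = 0.000166), with ratios of 1.58 (1.41 to 1.76) labelled Cre-negative and 1.62 (1.34 to 1.91) labelled Cre-positive. Over the 6 fits that left out 1 library, where the 2 without a day 7 library are 1 check, it was 1.56 to 1.72. It passed with DESeq2 (adjusted p = 2.7e-12). By label its log2 difference was -1.13, lower in the libraries labelled Cre-positive (SE 0.12, adjusted p = 0.00176, DESeq2 2.77e-07), with log2 ratios of -1.29 (-1.60 to -0.99), -1.25 (-1.39 to -1.11) and -0.99 (-1.24 to -0.74). This passed without either vehicle and without either day 7 library, and not without the day 3 library labelled Cre-negative or Cre-positive, where the difference was similar (-1.09 and -1.10) with a larger SE (0.16 in both) and the adjusted p was 0.103 and 0.136. For the label effect the 2 fits that leave out a library of one treatment rest on the same 4 libraries, so these are 3 checks, of which 2 passed. The whole cluster had 0.0776% of genes called by label and 5.46% at day 3. Sele rose there by 0.82 at day 3 (SE 0.15, adjusted p = 0.0105, DESeq2 0.00481), a call lost without the day 3 library labelled Cre-positive (0.997, adjusted p = 0.111) or Cre-negative (0.64, adjusted p = 0.239). Icam1 had -0.61 at day 3 (adjusted p = 0.102) and -0.93 to -0.25 over the 6 fits without 1 library, passing in some. Here too the fits without either day 7 library are 1 check. Sele by label had -0.52 (adjusted p = 0.248) and -0.64 to -0.39 over the 6 fits. It passed only without a vehicle library, which is 1 check whichever of that pair is left out. At day 7 no member passed, with 0.0097% of genes called and Sele at an unadjusted p of 0.00291. The immediate early list summed to 6864, 5578, 4757, 3566, 5674 and 4072 CPM in this cluster, lower in each library labelled Cre-positive than in its counterpart. The platelet list summed to 19.9 to 34.7 CPM. Their part in the Selp difference was not tested.

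**Figure D5:**
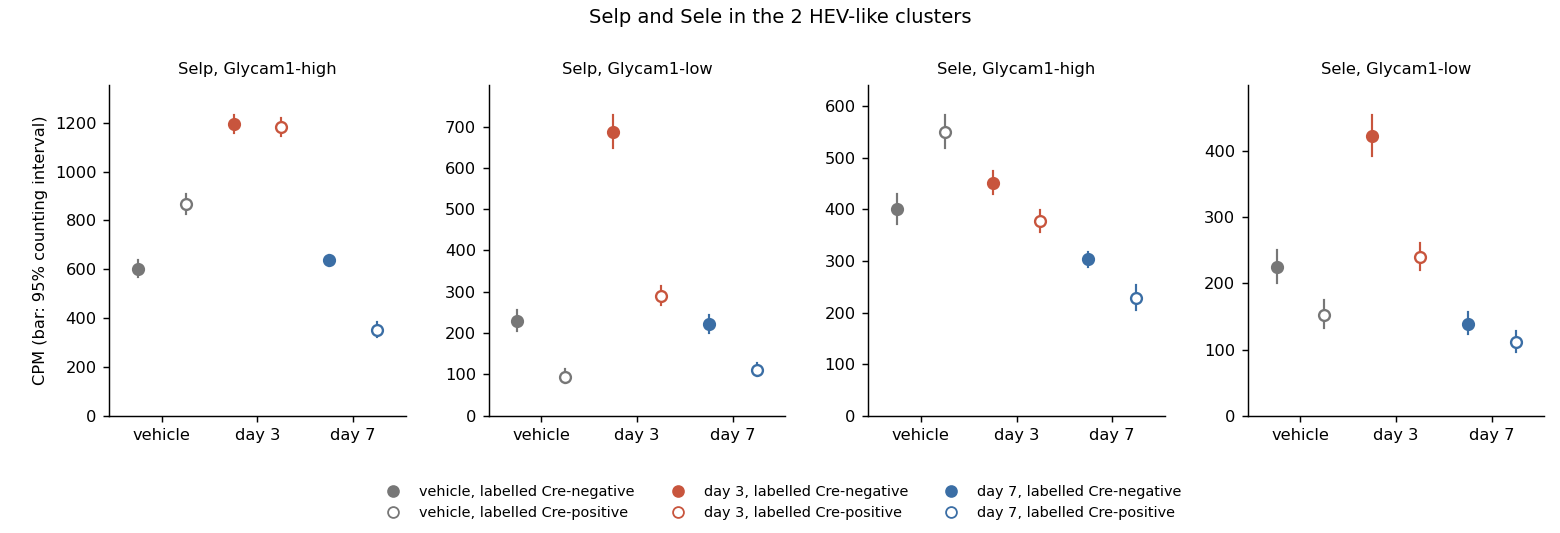
CPM of Selp and Sele in the Glycam1-high and Glycam1-low HEV-like clusters, 1 point per CD31 library with its 95% counting interval, filled for libraries labelled Cre-negative; each axis starts at 0 and has its own scale. In the Glycam1-low cluster the Selp point labelled Cre-positive lies below its counterpart at vehicle, day 3 and day 7.

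With edgeR no member passed in the Glycam1-high cluster, in comparisons with 0.0477%, 1.47% and 0% of genes called by label, at day 3 and at day 7. There the fitted log2 difference of Selp was 0.66 at day 3 (SE 0.29, adjusted p = 0.230) and -0.16 by label (SE 0.24, adjusted p = 1.00), and that of Icam1 was -1.07 at day 3 (SE 0.25, adjusted p = 0.0571). DESeq2 called this Icam1 difference (-1.07, adjusted p = 0.00297) and no other member in this cluster. Over the 6 edgeR fits without 1 library, the day 3 values were -1.41 to -0.68 for Icam1, -1.11 to -0.14 for Vcam1 and 0.23 to 1.203 for Selp. At day 3 the fits without either day 7 library rest on the same libraries and are 1 check. At day 7 the values were -1.18 to -0.36 for Sele and -1.14 to 0.04 for Selp. Whether these members passed varied with the library left out. The clusters' responses were then set against each other within libraries. The label effect on Selp differed by 0.95 (Glycam1-high minus Glycam1-low, SE 0.18, adjusted p = 0.0131), where 0.148% of genes were called, but not with DESeq2 (adjusted p = 1.00). At day 3, where 0.37% of genes were called, the effect on Sele differed by -1.05 (SE 0.19, adjusted p = 0.00343, DESeq2 0.0190) and that on Selp by -0.94 (SE 0.22, adjusted p = 0.0426, DESeq2 0.562). The difference for Sele was thus called by both tools and those for Selp by edgeR alone. At day 7 the comparison called 0.00926% of genes and no member. These comparisons between clusters were not refitted without single libraries. Set against the other classes in place of all HEV-like cells, the Glycam1-low cluster gave 4 calls with edgeR. These class comparisons were not refitted with DESeq2 or without single libraries. At day 3 the venous-like response was lower for Sele (-1.65, adjusted p = 0.0286) and Selp (-1.87, adjusted p = 0.0286), where 0.0904% of genes were called, and the lymphatic-like one for Selp (-1.62, adjusted p = 0.0240), where 0.0397% were. By label the lymphatic-like response of Selp was higher (1.82, adjusted p = 0.00237), where 0.0635% of genes were called. Capillary-like cells (0.0267%, 0.784% and 0.0178% of genes by label, at day 3 and at day 7), arterial-like cells (0%, 0.0449% and 0%) and venous-like cells at day 7 (0.01%) gave no call among the members.

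The other genes of leukocyte capture were read from lists of pathway genes. Of 29 tested adhesion and transmigration genes in HEV-like cells, 1 rose at day 3, Bst1 (0.92, adjusted p = 0.0404), an ectoenzyme of the endothelial surface, and 1 fell, Jam3 (-0.96, adjusted p = 0.0212), a junctional adhesion molecule, with a median of -0.07. These 2 of 29 are near the share of all genes called in that fit, 5.72%, and are not a result about the list. Of 10 Weibel-Palade body genes, the storage compartment of P-selectin, 1 fell, Myrip (-1.17), which tethers these granules. None of 15 receptors of cytokines that act on adhesion genes, 4 sheddases and 5 counter-receptors passed, with 6, 0 and 1 at an unadjusted p under 0.05. The share of all HEV-like genes at that level is not given here, so these counts are not a result about the lists. In venous-like and arterial-like cells the adhesion gene Mcam rose at day 3 (2.43 and 0.77) as the 1 called gene of 25 and 26 tested, and in arterial-like cells Il6 rose by 1.79, where 0.646% of genes were called. No gene of these lists passed in lymphatic-like cells at day 3, where 0% of all genes did. In capillary-like cells the 4 genes of the immediate early list called at day 3 all rose, against 0.394% of genes called. They were the heat-shock genes Hspa1a (1.60) and Hspa1b (1.495), and Ier3 (1.49) and Atf3 (1.49). At day 7 the 2 genes of this list called in that class were the heat-shock genes, both lower, against 0.0469% of genes called. Hspa1a had -3.56 (adjusted p = 1.64e-07) and Hspa1b -2.70 (adjusted p = 4.42e-05).

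Genes whose levels followed a member most closely were found over the 30 sums of 5 classes in 6 libraries, by Pearson's r of log2(CPM + 1). These sums share libraries, depth and class identity, so the r values mostly describe which classes hold the RNA. For Sele the closest were Nxph1 (r = 0.97), Ehd3 (0.97), Tll1, C1s1 and, as the fifth, Selp (0.96). For Selp they were Kcnh1 (0.97), Sele (0.96), the atypical chemokine receptor Ackr1 (0.95), Nexmif and C1s1. Icam1 ran with Esrrg (0.96), the NF-kB regulator Nfkbiz (0.95), Mylk, Thsd7a and Sntb2. Icam2 ran with Itm2b (0.95), the Notch ligand Jag2 (0.95), Sox13, Actn4 and Crip2, and Vcam1 with Prss23 (0.97), Timp2 (0.95), Fndc3b and Lhfpl2. Among the members, Icam2 had negative r with the other four, from -0.70 with Sele to -0.35 with Vcam1.

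Outside the endothelial classes, Vcam1 and Icam1 had other sources. Macrophage- or monocyte-like cells held 609 to 904 CPM of Vcam1 in the CD31 and 137 to 350.5 CPM in the CD45 libraries, and the mixed stromal cells of the CD45 libraries 521 to 725 CPM. Dendritic cell-like cells held 149 to 296 CPM of Icam1 in the CD45 libraries. Icam2 was counted at 43.2 to 57.4 CPM in B cell-like and 27.4 to 38.1 CPM in T cell-like cells there. Sele and Selp stayed at or under 1.35 CPM in both lymphocyte classes of the CD45 libraries. Tip-like endothelial cells held 233 to 297 CPM of Icam2, overlapping the capillary-like range and below every arterial-like value.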

How the data were processed

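UMI counts per gene and barcode were taken as deposited. Per the file headers the matrices are Cell Ranger output, with software version 4 in the header, whereas the submitters' processing notes name Cell Ranger 7.0.1 and build mm10; whether intronic and antisense reads were counted is not given in the sources used here. A feature listed in some libraries only (mRFP) was left out.

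Barcodes below 1000 UMIs or 500 genes, or above 10% mitochondrial UMIs, were dropped, and the highest Scrublet scores, 0.8% per 1000 barcodes, were removed as doublets (4.78% to 9.31%). In 2 CD31 libraries the removed barcodes did not have more UMIs than the rest. Each fraction was clustered (scanpy 1.11.5, leidenalg 0.10.2, Python 3.11.15) without the members, and clusters were named from marker lists; thresholds for leaving clusters unnamed were set after seeing them.

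Counts were summed per library and class and tested with edgeR 4.0.16 in R 4.3.3 (TMM, filterByExpr, 2 residual degrees of freedom), with each SE derived from the log2 change and its F statistic. Alternatives were DESeq2 1.42.0, other scaling and filters, thinning, finer clustering, doublets kept with new clustering, and left-out libraries. Another subtracted free RNA at an assumed 5% of each sum. The edgeR script was checked on simulated data. Counting intervals are exact at 95% and cover counting error only. Depth, by UMIs per class and library, ran from 164143 (venous-like) to 8208280 (lymphatic-like). Genes named beside the members were those called at 0.05 in the pathway lists, at most 4 per list, class and contrast, and the 5 genes most alike each member, of which 1 is not reported here. The members and lists were chosen with earlier results of these data known.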

Additional observations from a re-analysis of the deposited data

Results flagged for a closer look

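Ratios between libraries labelled Cre-positive and Cre-negative are given here where they were above 0 at one treatment and below 0 at another, both with counting intervals that left out 0 and at 10 CPM or more in both libraries, which held for 10 pairs of member and class. Other ratios that differed in sign did not meet this. Each ratio sets 1 library against 1, and the differences were not tested. In HEV-like cells the highest minus the lowest log2 ratio was 1.64 for Selp (0.39 at vehicle, -1.25 at day 7), 1.296 for Icam1 (0.56 at vehicle, -0.74 at day 7), 0.95 for Sele (0.30 at vehicle, -0.65 at day 7) and 0.99 for Vcam1 (0.66 at vehicle, -0.33 at day 3). In venous-like cells it was 2.52 for Vcam1 (1.44 at vehicle, -1.08 at day 7) and 1.31 for Icam1 (0.53 at vehicle, -0.77 at day 7). In lymphatic-like cells it was 1.40 for Sele (0.38 at day 7, -1.02 at day 3), 0.87 for Icam1 (0.27 at vehicle, -0.60 at day 7) and 0.74 for Vcam1 (0.39 at vehicle, -0.35 at day 7). With doublets kept and the cells clustered anew, the day 7 ratio of Sele in this class was -0.0137, so its sign was not kept. In capillary-like cells Icam1 spanned 1.37 (0.64 at day 7, -0.73 at vehicle), from 32 to 142 UMIs. For the pattern in Selp of HEV-like cells, the Glycam1-high cluster, with most of the Selp UMIs, had 0.53 at vehicle, -0.01 at day 3 and -0.85 at day 7, and the Glycam1-low cluster had -1.29, -1.25 and -0.99.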

How the results depend on the processing

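No paired analysis was possible with a replicate number as a block because each group has 1 library; label effects were fitted with treatment as a term, and differences between classes or clusters with library as a block. The counts of members called were 0 in the full fits and moved as follows. With the Glycam1-low cluster in place of all HEV-like cells, an alternative chosen after seeing the data, they were 1 by label and 2 at day 3, and for the class differences 1 by label and 3 at day 3. Without both vehicle libraries they were 3 by label and 4 for the class difference by label. DESeq2 gave 1 at day 7. Leaving out 1 library at a time gave 0 to 4 by label, 0 to 3 at day 3 and 0 to 3 at day 7, and for the class differences 0 to 1, 0 to 3 and 0 to 1; leaving out either vehicle library gave the 4, and these 2 fits share the libraries behind the label effect. A fit without 1 library has 1 residual degree of freedom, and the lone library of a treatment is assumed to vary like the others. With finer clustering (resolution 2) the classes with the highest median were kept for 3 of 5 members, since Sele and Icam1 became highest in venous-like cells. Genotype ratios whose counting interval left out 0 numbered 40 of 75, and 18 after thinning to 1000 UMIs. Thinning discards counts and widens these intervals by itself, so the drop does not show that the ratios changed. Sign was followed for members with an unadjusted p under 0.05 in the full fits, for ratios with an interval that left out 0 at 10 CPM or more, and for the Glycam1-low calls. Among these, the reversed values were Vcam1 in capillary-like cells at day 3 without the vehicle library labelled Cre-negative (0.43, and -2.15 without the one labelled Cre-positive), the day 7 genotype ratios of Sele (-0.0137) and Selp (-0.22) in lymphatic-like cells with doublets kept, and that of Selp in venous-like cells at day 3 after thinning (-0.0028). Other fitted values were not followed, and some given above changed sign. Among them were Selp in HEV-like cells at day 7 and by label, and the arterial-like Vcam1 class difference at day 3. The causes were not tested. Venous-like cells numbered 37 to 116 per library, which limits every venous-like value.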

Other observations

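Cycling-like endothelial cells, which are in none of the 5 classes, numbered 51 and 34 at vehicle, 238 and 339 at day 3 and 20 and 51 at day 7, the library labelled Cre-negative first. Their Selp stood at 1.96, 137, 290.1, 153, 5.15 and 45.7 CPM and their Sele at 37.2, 327, 237, 138, 25.8 and 85.6 CPM, from as few as 1 Selp UMI in a library, so that the day 3 values alone rest on more than 400 UMIs each. At day 3 these selectin levels lay between those of HEV-like and lymphatic-like cells of the same libraries. Cells of the CD31 libraries that carried lymphocyte genes beside endothelial ones held 303 to 998 CPM of Selp and 222 to 654 CPM of Icam1, and are in no class.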
